A study of Chlamydomonas reinhardtii with 15 samples.

Results

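HYDA1 and HYDA2, the hydrogenase genes of the green alga Chlamydomonas reinhardtii, and HYDEF, a factor that helps to build the active site of these enzymes, were examined during sulfur starvation. Their transcript models were taken from the tables given with the study, and the probes were found by the model number in the probe name. These were 3 of 14557 models on the array, HYDA1 as model 183963, HYDA2 as model 24189 and HYDEF as model 128256, each with 3 probes, so that 9 of 43687 probes were read. All 9 probes passed the filter on dim probes, which asked that a probe stand well above background on 3 or more of 15 arrays, in green or in red. A RefSeq gene table paired the models with the loci CHLRE_03g199800v5, CHLRE_09g396600v5 and CHLRE_06g296750v5. Model 128256 was called HYDEF in the tables given with the study, but also carried the symbol HYDG there, and the RefSeq table gave it no symbol. It is called HYDEF here, and which of the maturation factors its probes report was not tested. The study's tables report its own starvation results, so the members may be listed there because they responded. The shares over all probes given below come from a set not picked in that way.

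Each array compared RNA of a starved culture, labelled with Cy5 (red), with its own strain's RNA from 0 h, labelled with Cy3 (green). The cultures were of 3 wild types, cc125, cc3491 and 4A+, and of the mutant npq4, made by insertional mutagenesis and described as a knockout of LHCSR3.1 and LHCSR3.2, with 4A+ as its control. All cultures were grown in TAP, a medium with acetate, washed, and kept in TAP without sulfur under constant light. RNA was taken at 24, 48, 72 and 96 h in cc3491, cc125 and 4A+ and at 24, 48 and 96 h in npq4, and each of these samples was hybridised once. Every sample was a pool of biological samples, and the 0 h RNA of a strain served on all its arrays. The time points therefore stand in for replicates, the p-values measure their spread, and the spread of the 0 h culture is left out. Each strain lay on a slide of its own, so strain and slide cannot be told apart, and fewer cells expressing a gene cannot be told apart from less RNA per cell.

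Hydrogenases of this kind sit in the chloroplast, take electrons from reduced ferredoxin and release hydrogen gas. Oxygen inactivates them and also limits the making of their iron-containing active site, which HYDEF and HYDG assemble. Sulfur starvation is the classic way to obtain hydrogen from this alga, because photosystem II repair slows without sulfur and a closed culture can then use up its oxygen. Whether the cultures were closed, and their oxygen level, was not given in the sources used here.

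In green, 16699 to 29100 probes stood well above background on an array. In red, 4A+ arrays had 8729 to 12424 such probes and the others 14356 to 26604, so dim probes were measured least firmly in starved 4A+. Of the 3 LHCSR3 probes, 0 were above background on any npq4 array in either channel. Its control 4A+ had signal above background for probe 1 on 4 of 4 arrays and for probe 2 on 3 of 4, in each channel, but for probe 3 on 0 of 4, so only probes 1 and 2 set npq4 apart from 4A+. The mean ratios of the arrays labelled cc125 correlated with those of cc3491, 4A+ and npq4 at -0.49, -0.34 and -0.42 across 32076 probes, whereas the other strains correlated at 0.54 to 0.69. On the cc125 arrays the green channel also varied over time, with a median SD of 0.707 on the log2 scale against 0.121 in red, while in the other strains it was 0.0734 to 0.121 in green and 0.384 to 0.501 in red. The direction of the cc125 ratios is therefore not settled. They are given as labelled, and the cc125 means and their differences from cc3491 are also given with the sign turned.

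In cc3491, 4A+ and npq4, probes 1 and 2 of the hydrogenase genes lay on opposite sides of 0. For probes 1 and 2 of HYDA1 the ratio was below 0 on every measured array of all 4 strains as labelled, and for those of HYDA2 it was above on every array of cc3491, 4A+ and npq4. On the cc125 arrays these probes of both genes were below 0 as labelled, and with the sign turned both would be above it. The genes thus shared a side of 0 in cc125 in either direction. The most responsive probe of HYDEF was above 0 in cc3491 and 4A+, and in npq4 it was below or near 0. Ratios are log2 of starved over 0 h, after background correction and loess (a fit that removes the dependence of the ratio on brightness), and a call needed a Holm adjusted p below 0.05 in limma together with a change of at least 2-fold. Under that rule 0 of the 9 probes were called in cc3491, 4A+ or npq4, where 3.31%, 2.82% and 1.51% of all tested probes were called. With Benjamini-Hochberg adjustment in place of Holm, 3 of 9 were called in cc3491, all higher, 3 in 4A+, 2 higher and 1 lower, and 2 in npq4, both lower. Over all tested probes 5.97% were then higher in cc3491, 4.87% higher and 5.12% lower in 4A+, and 4.56% lower in npq4. On the cc125 arrays as labelled, 1 of 9 was called with Holm and 4 with Benjamini-Hochberg, all lower. The share over all probes was 2.71% in either direction with Holm and 3.76% lower with Benjamini-Hochberg. With the sign turned these are higher.

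**Figure D1:**
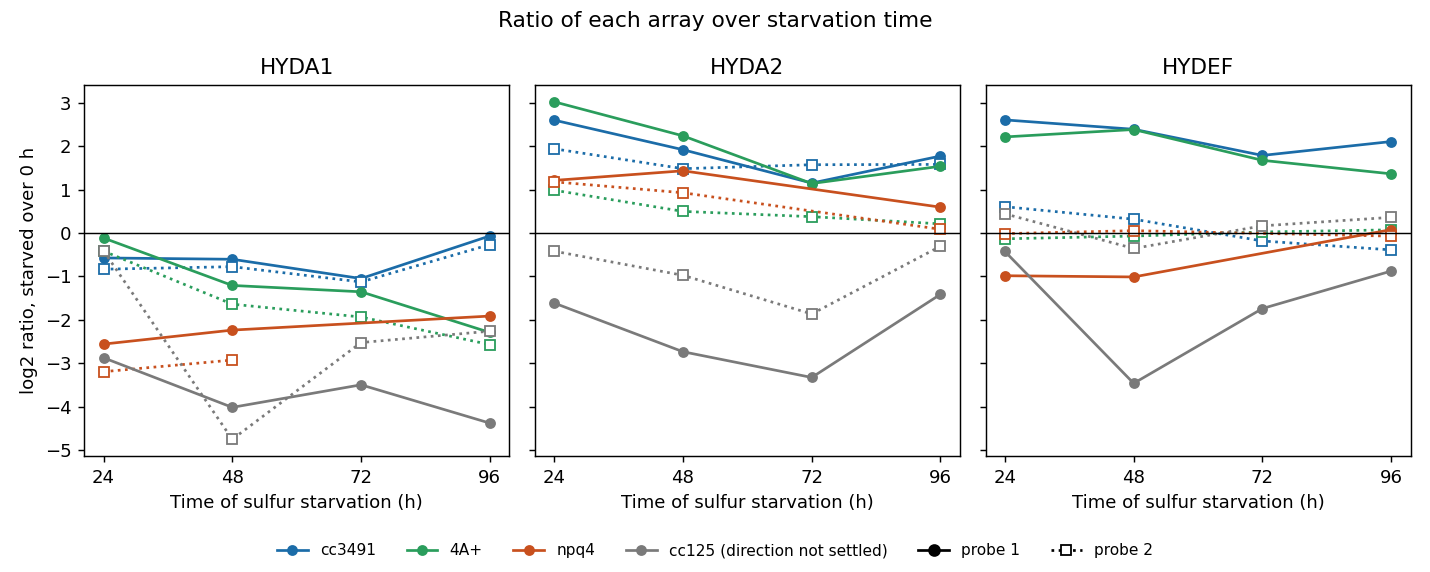
Log2 ratio of starved over 0 h RNA (vertical axis) at 24, 48, 72 and 96 h of sulfur starvation (horizontal axis) for probe 1 (filled circles) and probe 2 (open squares) of HYDA1, HYDA2 and HYDEF, with 1 point per array and colours for strains. HYDA1 lies below 0 on all arrays, HYDA2 above 0 in cc3491, 4A+ and npq4, and probe 1 of HYDEF lies at 1.36 or higher in cc3491 and 4A+ and at 0.08 or lower in npq4.

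HYDA1 is the gene of the main hydrogenase, and the signal of its probe 1 was lower in the starved channel, as labelled, on nearly every array. The net intensity of probe 1, the spot minus its local background in scanner units, was 43629 to 54818 in green in cc3491, 26454 to 28118 in 4A+ and 32119 to 40093 in npq4. In red it was 27449 to 53477 in cc3491, 1130 to 4089 in 4A+ and 5906 to 9186 in npq4. The net intensity was thus lower in red than in green on every array of these strains except cc3491 at 96 h. There it was 53477 against 43629, and the normalised ratio was -0.07. Net intensities are not scaled between the channels, and on 4A+ arrays fewer probes stood above background in red than in green. In 4A+ at 24 h they were 27626 in green and 4089 in red, while the normalised log2 ratio was -0.11. The gap between channels is therefore not a measure of the change in HYDA1. No spot of these probes was saturated.

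The log2 ratio of HYDA1 probe 1 in cc3491 was -0.57, -0.60, -1.05 and -0.07 at 24, 48, 72 and 96 h. In 4A+ it was -0.11, -1.21, -1.35 and -2.29. In npq4 it was -2.55, -2.23 and -1.91 at 24, 48 and 96 h. Every array of npq4 lay below every array of cc3491, as for 10.4% of all tested probes, and the 96 h array of 4A+ reached into the range of npq4. Probes below 0 on all 11 of these arrays made up 6.24% of those tested.

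Probe 2 of HYDA1 gave the same order. Its log2 ratio was -0.83, -0.77, -1.12 and -0.27 in cc3491 and -0.42, -1.64, -1.93 and -2.57 in 4A+ over the time points. In npq4 it was -3.19 and -2.92 at 24 and 48 h, and the 96 h spot was marked as an outlier and left out, so that n was 2 there. Probes 1 and 2 correlated at 0.99 over the 11 arrays of cc3491, 4A+ and npq4, a description over arrays that share their 0 h RNA within a strain. Probe 3 was dim. It was well above background in red on none of the 15 arrays, and in green on all arrays of 4A+ and npq4 and on 0 of 4 in cc3491. Its mean log2 ratio was -0.28 in 4A+ and -0.48 in npq4, but with red not detected the size of a change was not measured.

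As a mean over time points, HYDA1 probe 1 was at -0.57 ± 0.40 (SD) over the 4 arrays of cc3491, -1.24 ± 0.89 (SD) over the 4 of 4A+ and -2.23 ± 0.32 (SD) over the 3 of npq4 on the log2 scale. In limma the Holm adjusted p was 1, 1 and 0.642, and the Benjamini-Hochberg adjusted p was 0.165, 0.0104 and 0.000561. Probe 1 was thus called lower with Benjamini-Hochberg in 4A+ and npq4 and not in cc3491. In 4A+ that call rested on the 96 h array, without which the mean was -0.89 where the Benjamini-Hochberg adjusted p was 0.0731, within a range of 3.94e-06 to 0.0731 over the settings tried. It was also lost in a fit to the 4A+ arrays alone, at 0.0722. The 4A+ value also moved with the scaling, to -3.43 when each array was only centred on its median. Probe 2 had means of -0.75 ± 0.36 (SD, n = 4), -1.64 ± 0.90 (SD, n = 4) and -3.06 ± 0.19 (SD, n = 2), and its Benjamini-Hochberg adjusted p in limma was 0.31, 0.0525 and 0.0122, so that it was called in npq4 and not in 4A+. Without the 24 h or the 48 h array of npq4, only a single array of probe 2 was left, and that p was 0.127 or 0.102.

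In 4A+ the ratio of HYDA1 was highest at 24 h and lowest at 96 h. The ratio of probe 1 had a slope of -0.67 per 24 h there, with a standard error of 0.16, and that of probe 2 a slope of -0.67 with a standard error of 0.50. The slope of probe 1 had an unadjusted p of 0.00274 in limma, and its adjusted p was 1 with Holm and with Benjamini-Hochberg. Slopes in 4A+ passed Holm for 0.00312% of all probes, and the slope over all strains passed for 0 of the 9 probes and 0% of all probes with either adjustment, also with the sign of cc125 turned. In cc3491 and npq4 the slope of probe 1 was 0.11 and 0.21, with standard errors of 0.16 and 0.17.

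On the arrays labelled cc125 the log2 ratio of HYDA1 probe 1 was -2.87, -4.01, -3.49 and -4.37. These were the lowest ratios of that probe on any array, with a mean of -3.69 ± 0.65 (SD, n = 4) and a Holm adjusted p in limma of 0.000547. With median centring the mean was -1.996 and the call was lost, as it was in a fit to the cc125 arrays alone. Probe 1 of HYDA1 was the only probe of the 9 that passed Holm within a strain. As labelled it was below 0 on all 15 arrays, which held for 0.287% of all tested probes. Since the cc125 ratios ran opposite to the others over all probes, few probes could keep 1 sign on all 15. On the 11 arrays of the other strains 6.24% were below 0. With the sign turned the mean in cc125 was 3.69, opposite to the other strains. Probe 2 was less even there, at -0.41, -4.74, -2.52 and -2.26. Its green net intensity was 70476 at 48 h and between 3567 and 10384 on the other cc125 arrays, while its red net intensity stayed between 5622 and 7343. At 24 and 96 h red was thus above green, at 7343 against 3567 and 5622 against 3568, although the normalised ratio was below 0.

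**Figure D2:**
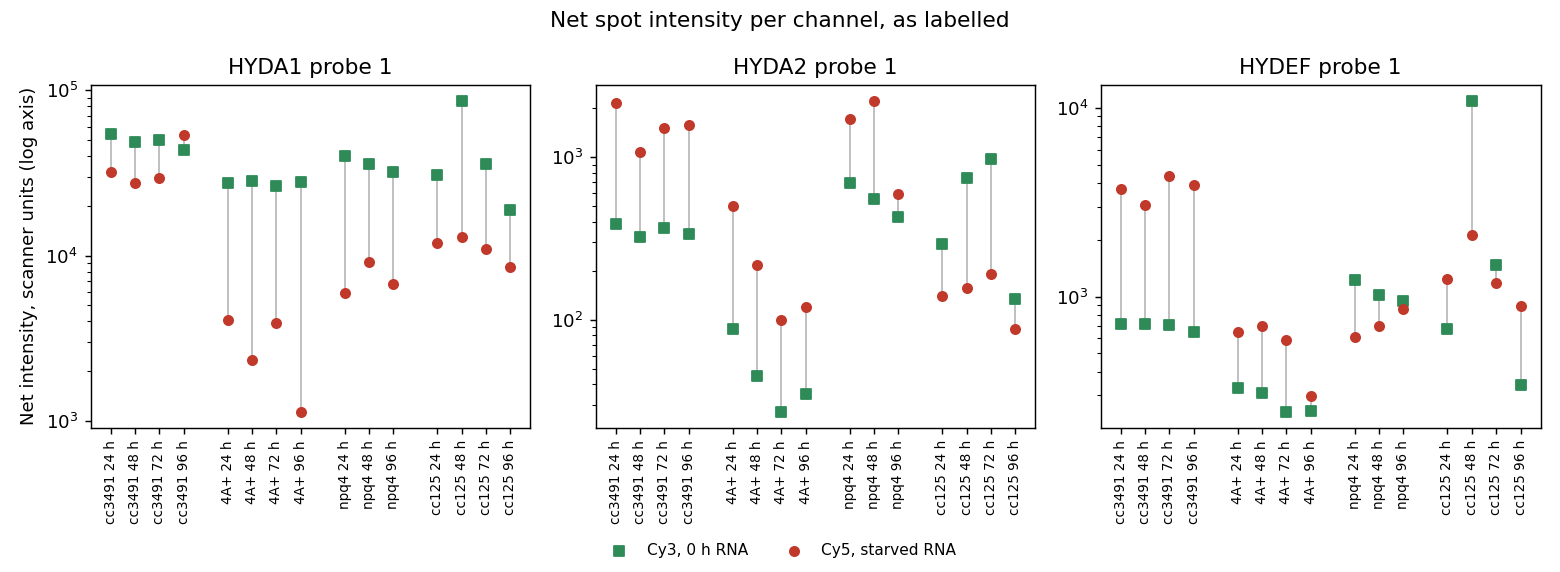
Net intensity in scanner units (vertical log axis) of probe 1 of HYDA1, HYDA2 and HYDEF on each of the 15 arrays (horizontal axis), with green squares for Cy3 (0 h RNA) and red circles for Cy5 (starved RNA), joined by a line per array. HYDA1 is dimmer in red than in green on every array but cc3491 at 96 h, and on the cc125 arrays the green points vary over time, from 18767 to 86916 for HYDA1.

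HYDA2 is the gene of the other hydrogenase, and its probe 1 was brighter after starvation in cc3491, 4A+ and npq4. On the cc125 arrays, whose direction is not settled, that probe was dimmer in red than in green as labelled. Its green net intensity was 323 to 390 in cc3491, 27.0 to 87.5 in 4A+ and 430 to 699 in npq4. In red it was 1084 to 2154 in cc3491, 99.0 to 504 in 4A+ and 591 to 2237 in npq4. Red was above green on all 11 of these arrays. Levels of different probes cannot be set against each other on this array, so these intensities do not rank HYDA2 against HYDA1.

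The log2 ratio of HYDA2 probe 1 was 2.60, 1.92, 1.15 and 1.77 in cc3491 at 24, 48, 72 and 96 h. In 4A+ it was 3.02, 2.23, 1.14 and 1.54. In npq4 it was 1.21, 1.43 and 0.59 at 24, 48 and 96 h. The ranges of the strains overlapped, and in cc3491 and 4A+ the 24 h array was the highest. Probe 2 was at 1.94, 1.48, 1.57 and 1.58 in cc3491, 0.98, 0.50, 0.38 and 0.21 in 4A+, and 1.18, 0.93 and 0.09 in npq4. Both probes were above 0 on all 11 arrays of these strains, as were 6.28% of all tested probes.

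The mean of HYDA2 probe 1 was 1.86 ± 0.59 (SD) over the 4 arrays of cc3491, 1.98 ± 0.83 (SD) over the 4 of 4A+ and 1.08 ± 0.43 (SD) over the 3 of npq4 on the log2 scale. The Benjamini-Hochberg adjusted p in limma was 0.00115, 0.00119 and 0.0886, so the probe was called higher in cc3491 and 4A+ and not in npq4 under that adjustment. With Holm the adjusted p was 1 in each. Probe 2 was the firmest of the 9 in cc3491, at 1.64 ± 0.20 (SD, n = 4), with adjusted p-values in limma of 0.264 with Holm and 0.000132 with Benjamini-Hochberg. It was at 0.52 ± 0.33 in 4A+ (SD, n = 4) and 0.73 ± 0.57 in npq4 (SD, n = 3), where the Benjamini-Hochberg adjusted p was 0.178 and 0.0836. The 4A+ mean of probe 2 moved with the processing, to 1.199 without the background offset, 1.341 with the scanner ratio and 0.2396 with median centring. Probe 3 was near background, well above it in each channel on 3 of 4 arrays of cc3491 and on 0 of 4 of 4A+, and its mean ratio was 0.22 in cc3491 and 0.02 in 4A+.

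Probes 1 and 2 of HYDA2 followed each other less closely than those of HYDA1, with a correlation of 0.41 over the 11 arrays. In 4A+, probe 2 had a green net intensity of only 18.0 to 32.0 and a red one of 22.5 to 83.0. All 4 arrays of 4A+ lay below all 4 of cc3491 for probe 2, a pattern that 12.4% of all probes showed. The difference 4A+ minus cc3491 was -1.12 for probe 2, with a Benjamini-Hochberg adjusted p in limma of 0.0296, and 0.12 for probe 1, with one of 0.898. Probe 2 was the 1 of 9 called there, where 4.29% of all probes were called lower, and Holm called 0 of 9 against 1.47%. Without the background offset the probe 2 difference was -0.81 and its adjusted p 0.215, with the scanner ratio it was -0.71 and that p 0.331, and leaving out any of 5 of the 8 arrays raised that p to between 0.0514 and 0.0835. Dim signals in 4A+ moved with this difference, and their part in it was not tested.

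Without cc125, the ratio of HYDA2 had a slope of -0.24 per 24 h for probe 2 and -0.37 for probe 1. The unadjusted p in limma was 0.00142 and 0.00674, and the Benjamini-Hochberg adjusted p was 0.279 and 0.462. Slopes of this kind passed Benjamini-Hochberg for 0.0592% of all probes, and those of HYDA2 were not among them. As labelled, the ratio of HYDA2 probe 1 in cc125 was -1.61, -2.73, -3.32 and -1.41, with a mean of -2.27 ± 0.91 (SD, n = 4), or 2.27 with the sign turned. Probe 2 was at -0.42, -0.97, -1.86 and -0.30 there, with a mean of -0.89, or 0.89 turned, and without the 72 h array it was -0.5651 as labelled. Turned, the cc125 means of both probes lie on the same side of 0 as those of the other strains.

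The contrast between the hydrogenase genes could be read on each array. Probe 1 of HYDA2 had a higher ratio than probe 1 of HYDA1 on 15 of 15 arrays as labelled, by 0.17 to 3.82 on the log2 scale. In cc3491, 4A+ and npq4 this follows from the opposite signs given above, and no share over other pairs of probes was computed. For probe 2 the order did not hold on the cc125 array at 24 h, with HYDA2 at -0.418 and HYDA1 at -0.410. The gaps that follow are those of probe 1. The mean gap was 2.43 ± 0.57 (SD) over the 4 arrays of cc3491, 3.22 ± 0.56 (SD) over the 4 of 4A+ and 3.31 ± 0.70 (SD) over the 3 of npq4. The gap, which was not tested, was thus wide in all of these strains, including cc3491, where HYDA1 by itself was called with neither adjustment. In cc125 it was 1.42 ± 1.15 (SD, n = 4) as labelled, and with the sign turned HYDA2 would lie below HYDA1 on these 4 arrays.

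**Figure D3:**
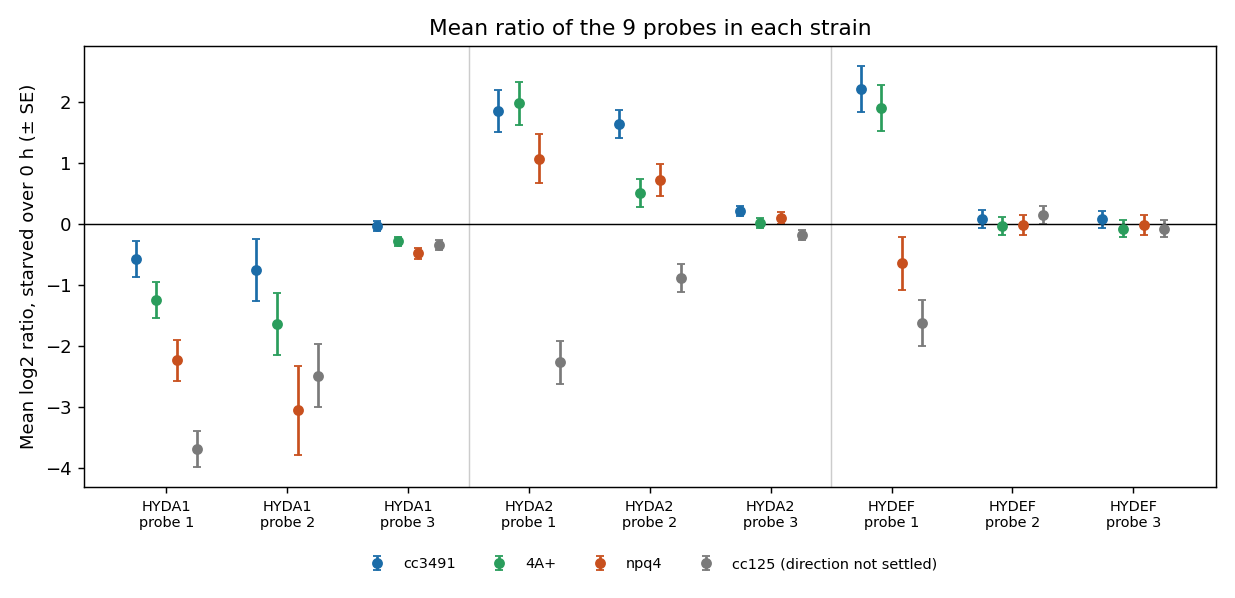
Mean log2 ratio of starved over 0 h RNA (vertical axis) of each of the 9 probes (horizontal axis) in each strain, with 1 point per strain and bars of ± 1 standard error from limma. Probes 1 and 2 of HYDA1 lie below 0 and those of HYDA2 above 0 in cc3491, 4A+ and npq4, and probe 1 of HYDEF is at 2.22 in cc3491, 1.91 in 4A+ and -0.64 in npq4.

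Probe 1 of HYDEF lay lower in npq4 than in the wild types cc3491 and 4A+, while its other probes were too dim in starved 4A+ to be compared there. The green net intensity of its probe 1 was 648 to 718 in cc3491, 245 to 329 in 4A+ and 944 to 1231 in npq4. In red it was 3068 to 4357 in cc3491, 299 to 697 in 4A+ and 613 to 856 in npq4. Before scaling between channels, starved RNA gave the brighter signal on every array of cc3491 and 4A+, and the dimmer signal on every array of npq4. After normalization the npq4 ratio at 96 h was 0.08.

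The log2 ratio of HYDEF probe 1 was 2.60, 2.39, 1.78 and 2.10 in cc3491 at 24, 48, 72 and 96 h. In 4A+ it was 2.21, 2.38, 1.67 and 1.36. In npq4 it was -0.98, -1.01 and 0.08 at 24, 48 and 96 h. All 3 arrays of npq4 lay below all arrays of cc3491 and 4A+, and the arrays of cc3491 and 4A+ overlapped. Of all tested probes, 13.4% were lower in npq4 than in 4A+ on every array, and 10.4%, as given above, were lower than in cc3491.

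The mean of HYDEF probe 1 was 2.22 ± 0.35 (SD) over the 4 arrays of cc3491, 1.91 ± 0.47 (SD) over the 4 of 4A+ and -0.64 ± 0.62 (SD) over the 3 of npq4. The Benjamini-Hochberg adjusted p in limma was 0.000608, 0.00307 and 0.41, and the Holm adjusted p was 1 in each. HYDEF probe 1 was thus called higher with Benjamini-Hochberg in cc3491 and 4A+. Without the 96 h array its mean in npq4 was -0.9963. In 4A+ the mean was 0.79 with median centring of the arrays, where that adjusted p was 0.254, within a range of 0.00012 to 0.254 over the settings tried. In a fit without the cc125 arrays, chosen after seeing the data, probe 1 passed Holm in cc3491, and 1 of 9 probes was called there.

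**Figure D4:**
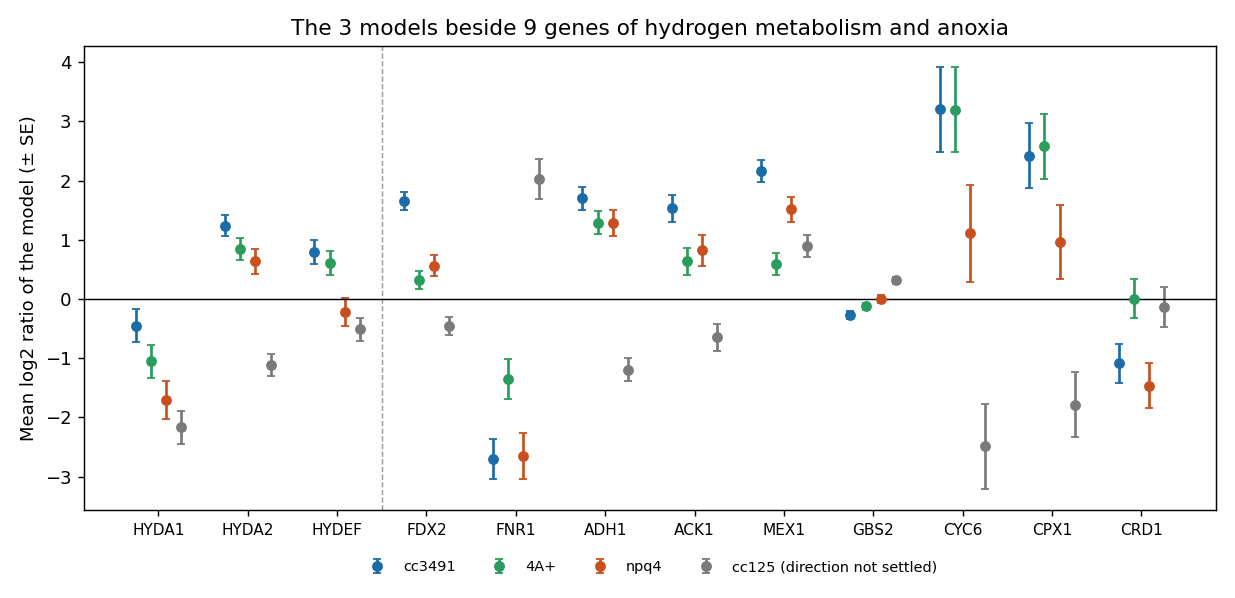
Mean log2 ratio of starved over 0 h RNA (vertical axis) of the HYDA1, HYDA2 and HYDEF models, left of the dashed line, and of 9 genes listed for hydrogen metabolism, fermentation, copper and anoxia response and starch (horizontal axis), with 1 point per strain and bars of ± 1 standard error from limma. In cc3491 MEX1, FDX2 and ADH1 lie at 2.16, 1.66 and 1.70 and FNR1 lies at -2.70.

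Probes 2 and 3 of HYDEF were dimmer than probe 1. In cc3491 both were well above background in each channel on 4 of 4 arrays, with a net intensity of 41.0 to 257. Their mean log2 ratios there were 0.09 and 0.08, against 2.22 for probe 1, so these detected probes did not show its rise. In 4A+ and npq4 their means lay between -0.07 and -0.01, but in starved 4A+ probe 2 was well above background on only 1 of 4 arrays and probe 3 on 0 of 4, so a change there could not be measured. Over the 11 arrays they correlated with each other at 0.95, but with probe 1 at only 0.15 and 0.13. In cc3491 the ratio of probe 2 had a slope of -0.35 per 24 h, and its p in limma was 0.00803 before and 0.149 after Benjamini-Hochberg adjustment. Averaged over its probes, the HYDEF model was at 0.80 ± 0.38 (SD) over the 4 arrays of cc3491, 0.60 ± 0.13 (SD) over the 4 of 4A+ and -0.22 ± 0.18 (SD) over the 3 of npq4. As a model it differed by -0.82 for npq4 minus 4A+ and by -1.02 for npq4 minus cc3491, and passed neither adjustment in limma, with Benjamini-Hochberg adjusted p-values of 0.134 and 0.0592 and a Holm adjusted p of 1 in both. The statements on HYDEF therefore rest on a single probe. Some probes of the array came from an earlier design, which the study left out of its own analysis because of lower ratios and possible cross-hybridisation. The origin of these 9 probes was not analysed here, and the model means include all of them.

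On the cc125 arrays as labelled, the log2 ratio of HYDEF probe 1 was -0.42, -3.46, -1.74 and -0.87, with a mean of -1.62 ± 1.34 (SD, n = 4), or 1.62 with the sign turned. Its green net intensity was 10934 on the 48 h array and between 341 and 1462 on the others. At 24 and 96 h the red net intensity, 1241 and 892, was above the green, 670 and 341, although the ratio was below 0 after loess. The scanner ratio, which is dye normalized in its own way, was also below 0 there, at -0.89 and -1.34. With median centring the mean of this probe was -0.37, and without the 48 h array it was -1.012.

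The difference between strains was then tested for each probe. For npq4 minus 4A+, the mutant against its control, 1 of 9 probes was called lower with Benjamini-Hochberg, as were 2.15% of all probes, and 0 with Holm, against 0.751%. This was HYDEF probe 1, at -2.54 with a standard error of 0.58 and adjusted p-values in limma of 0.017 with Benjamini-Hochberg and 1 with Holm. The call was lost without the 24 h or 48 h array of npq4 or the 48 h array of 4A+, at -2.37, -2.36 and -2.39. It was also lost with median centring, at -1.39, and the Benjamini-Hochberg adjusted p ranged from 0.00133 to 0.215 over the settings tried. HYDA1 probe 1 differed by -0.99 with a standard error of 0.45, and HYDA2 probe 1 by -0.90 with a standard error of 0.53, and the Benjamini-Hochberg adjusted p in limma was 0.246 and 0.396. For HYDA1 the sign turned with median centring, where the difference was 1.03. Without the 24 h array of 4A+ these differences were -0.62 for HYDA1 and -0.56 for HYDA2, and over all left-out arrays they reached -1.34 and -1.18. With the scanner ratio they were -0.37 and -2.27. Probe 2 of HYDA1 differed by -1.42 and probe 2 of HYDA2 by 0.21. Their Benjamini-Hochberg adjusted p-values in limma were 0.446 and 0.84. For HYDA2 the sign of the difference between npq4 and 4A+ thus was not the same for probes 1 and 2.

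For npq4 minus cc3491, 2 of 9 probes were called lower with Benjamini-Hochberg, as were 1.52% of all probes, and 0 with Holm, against 0.387%. HYDEF probe 1 differed by -2.86 with a standard error of 0.58, and its Benjamini-Hochberg adjusted p in limma was 0.00928. Without the 48 h array of npq4 the difference was -2.67 and that p was 0.0501. HYDA1 probe 1 differed by -1.66 with a standard error of 0.45, with a Benjamini-Hochberg adjusted p in limma of 0.0398. That call was the less firm, because leaving out any of the 3 npq4 arrays or the 24, 48 or 96 h array of cc3491 raised the p to between 0.0635 and 0.143. Blocking by time point raised it to 0.0652, normexp fitted on all spots to 0.0698, and a test of only the probes above background in both channels on all arrays to 0.0572. The HYDA2 probes 1 and 2 differed by -0.78 and -0.91, with Benjamini-Hochberg adjusted p-values of 0.428 and 0.138, and that of probe 2 was -0.59 without the 96 h array of npq4. Comparisons with npq4 share its 3 arrays.

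For 4A+ minus cc3491, HYDA1 probe 1 differed by -0.67 and HYDEF probe 1 by -0.31, with standard errors of 0.42 and 0.53 and Benjamini-Hochberg adjusted p-values in limma of 0.31 and 0.744. These values were loose. HYDA1 was at -1.042 without the 24 h and -0.318 without the 96 h array of 4A+. HYDEF was at -0.4713 without the 48 h and -0.1316 without the 96 h array of 4A+, and at -0.1857 without the 24 h array of cc3491. With median centring they were -2.824 and -1.464. For cc125 minus cc3491 as labelled, HYDA2 probe 1 passed Holm, at -4.13 with a standard error of 0.49 and an adjusted p in limma of 0.0444. It was 1 of 9 called, against 5.44% of all probes, and 4 of 9 were called lower with Benjamini-Hochberg, against 8.28%. The Holm call was lost when any single array of cc3491 or cc125 was left out. HYDEF probe 1 differed by -3.84 as labelled, with a Holm adjusted p of 0.242. With the sign turned, the HYDA2 probe 1 difference was 0.41, that of HYDA2 probe 2 -0.75 and that of HYDEF probe 1 -0.60, and these were not called with either adjustment. The HYDEF model went from -1.31, called with Benjamini-Hochberg, to -0.2809. The probe that passed Holm was then HYDA1 probe 1, at 4.26, 1 of 9 against 1.56%. With Benjamini-Hochberg, 0 of 9 were lower, against 7.27%, and 2 were higher, against 3.32%, which were HYDA1 probes 1 and 2, at 4.26 and 3.23. The set of probes that passed thus depended on the direction given to the cc125 arrays.

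The members were set beside other genes of hydrogen metabolism and low oxygen. Of 49 symbols listed for maturation, electron supply, fermentation, copper and anoxia response, starch turnover and oxygen evolution, 11 had a model here, 9 of them besides the hydrogenase and maturation models. A symbol was known only for the 483 models named in the study's tables, which report its own starvation results, including genes with differential expression. The 9 genes may thus be listed because they responded, so in every strain the shares and medians over all models are not a like comparison for them. In cc3491, 4 of these 9 passed Holm, against 3.34% of all models. They were MEX1, a maltose exporter of the chloroplast, at 2.16 ± 0.25 (SD, n = 4), FDX2, a ferredoxin, at 1.66 ± 0.32 (SD, n = 4), ADH1, an alcohol and aldehyde dehydrogenase of fermentation, at 1.70 ± 0.27 (SD, n = 4), and FNR1, ferredoxin NADP reductase, which draws on the same ferredoxin pool, at -2.70 ± 0.80 (SD, n = 4). With Benjamini-Hochberg 6 were higher and 2 lower in cc3491, against 8.49% of all models. The median of the 9 was 1.66, and that over all models 0.01.

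In 4A+ and npq4, 0 of the 9 passed Holm, against 3.27% and 1.88% of all models. With Benjamini-Hochberg 3 were higher and 1 lower in 4A+, and 2 were higher and 2 lower in npq4, against 8.01% and 7.35%, and the medians were 0.59 and 0.82. In cc125 as labelled 0 passed Holm, against 2.75%, and 1 was higher and 3 were lower with Benjamini-Hochberg, against 7.85%, with directions exchanged when the sign is turned. CYC6, a cytochrome c6 that replaces plastocyanin when copper is short, and CPX1, a coproporphyrinogen oxidase, are known to respond to copper shortage and low oxygen. CYC6 was at 3.20 ± 0.19 in cc3491 (SD, n = 4) and 3.20 ± 0.91 in 4A+ (SD, n = 4), and in npq4 at 0.02, -0.03 and 3.33 at 24, 48 and 96 h. Of the 3 npq4 arrays the 96 h array was thus the highest for CYC6 and for HYDEF probe 1. It was also the highest for CPX1, FDX2, CRD1, GBS2 and HYDA1 probe 1. For ADH1, ACK1, MEX1, FNR1 and probes 1 and 2 of HYDA2 it was the lowest. That array had the fewest probes above background in npq4, at 16699 in green and 14356 in red. CRD1, an enzyme of chlorophyll synthesis and the third copper and anoxia gene with a model, was at -1.09 ± 0.22 (SD) over the 4 arrays of cc3491, 0.01 ± 0.30 (SD) over the 4 of 4A+ and -1.46 ± 0.31 (SD) over the 3 of npq4. It was called lower with Benjamini-Hochberg in cc3491 and npq4, with adjusted p-values in limma of 0.0213 and 0.0156. CPX1 was at 2.42 in cc3491, 2.58 in 4A+ and 0.96 in npq4. ADH1 was at 1.29 in both 4A+ and npq4, and FNR1 at -1.35 and -2.65.

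The models most like each member were taken by Pearson correlation of mean log2 ratios over the 11 arrays of cc3491, 4A+ and npq4, among 11036 models with at least 2 tested probes. These correlations are descriptions, since 0 h RNA was shared within a strain. HYDEF was most like HTB7, HTB9 and HTB12, genes of histone H2B, at 0.97, 0.96 and 0.96, and over all 15 arrays at 0.93, 0.91 and 0.90 as labelled and 0.90, 0.87 and 0.86 with cc125 turned. These histone genes had means of 2.13 to 2.29 in cc3491, 1.84 to 1.99 in 4A+ and 0.08 to 0.31 in npq4, an order that matches probe 1 of HYDEF. HYDA2 was most like model 145743 at 0.91, ADH1 at 0.89 and model 186023 at 0.87, and over 15 arrays ADH1 was at 0.98 against 0.48 and 0.38 as labelled, and at 0.75 against 0.45 and 0.51 with cc125 turned. HYDA1 was most like OASTL4, an enzyme of cysteine synthesis, at 0.93, although that model was above 0 in cc3491, at 2.90, in 4A+, at 2.61, and in npq4, at 1.82. Models 170950 and 14080 followed at 0.93 and 0.92, with means within 0.32 of 0. Over all 15 arrays OASTL4 and models 170950 and 14080 were at 0.846, 0.703 and 0.565 as labelled. With cc125 turned they were at -0.463, 0.501 and -0.314, so the sign for OASTL4 and model 14080 depended on the cc125 direction. Among themselves, HYDA1 and HYDA2 correlated at 0.64, HYDA1 and HYDEF at 0.72 and HYDA2 and HYDEF at 0.60 over the 11 arrays.

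The locus before that of HYDEF in the RefSeq order, CHLRE_06g296700v5, was represented by model 196226, which the sources used here do not name. In cc3491 its probe 2 was at 1.93 ± 0.69 (SD, n = 4) with a Holm adjusted p in limma of 0.025, its probe 3 at 1.20 ± 0.17 (SD, n = 4) and its probe 1 at -0.06 ± 0.37 (SD, n = 4). As a model it was at 1.02 in cc3491, -0.10 in 4A+ and -0.29 in npq4. It was thus higher after starvation in cc3491 like HYDEF, but unlike probe 1 of HYDEF it was not higher in 4A+.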

How the data were processed

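Transcript levels were measured on 15 two-colour Agilent arrays of 45218 spots each. The authors deposited scanner files whose median intensity values, for spots and for the background around them, were raw in green and in red. The same deposited files give, as log10, red over green, background subtracted and dye normalized by Agilent Feature Extraction 10.7.3.1 per the submitters' processing notes, and the deposited series matrix held the same log10 values, with a largest difference of 0. That ratio was exactly 0 on 11.0% to 37.4% of spots per array and was used only as an alternative.

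The intensities were taken into limma 3.58.1 (R 4.3.3), corrected by normexp with an offset of 50 and normalized by loess within arrays with a span of 0.3, to give log2 of red over green. For the normexp parameters, outlier-marked spots and those with a net signal of -100 or less were set aside, which was first decided after these data had been seen. Channel levels were taken after Aquantile normalization. Dye bias can enter them, since no dye swap was stated. Control and outlier spots were not used, and 32076 probes of 13465 models were tested. A model's value is the mean over its tested probes. In limma each strain had its own mean in 1 model of all arrays, with p-values adjusted over all tested probes or models by Holm, as in the study's methods, or by Benjamini-Hochberg. Slopes were fitted per 24 h with strain as a fixed effect, or by strain, with no fold limit. The number of arrays limits the precision. The members, the gene lists, the rule for naming genes (all members, listed genes that passed Holm or are nearest by role, and the 3 models most like each member) and the tests were chosen with earlier results of these data known.

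The study's tables gave symbols for 483 models. A RefSeq table of another assembly than that of the array design paired 12302 models with a locus and was used for locus names and their order. Alternatives were an offset of 0, the scanner ratio, median centring, normexp on all spots, no filter, a filter on both channels, Benjamini-Hochberg, cc125 with the sign turned, time point as a block, each strain's own arrays, the median over a model's probes, slopes without cc125 and leaving out each array in turn. A fit without the cc125 arrays, Benjamini-Hochberg under the other settings, and correlations over 15 arrays with cc125 turned were added after seeing the data. The fits were tested on simulated data.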

Additional observations from a re-analysis of the deposited data

Results flagged for a closer look

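Some starvation responses of the members differed between strains past the threshold or in sign. Opposite signs were looked for only in pairs of strains without a test, which were cc125 against 4A+ and against npq4, so these could only involve cc125. Outside that search, HYDEF probe 1 had a mean of -0.64 in npq4 and of 2.22 and 1.91 in cc3491 and 4A+. For cc125 minus cc3491, the difference passed Holm for HYDA2 probe 1 at -4.126 and for the HYDA2 model at -2.35, and with the sign of cc125 turned these were 0.41 and -0.13. Signs were opposite on every array of both strains, a difference that was not tested, for HYDA2 probe 1 in cc125 against 4A+ and npq4, where the means differed by -4.249 and -3.347. The same held for HYDA2 probe 2, with differences of -1.406 against 4A+ and -1.619 against npq4, and for HYDA2 probe 3 against npq4, at -0.2703. That last probe was well above background in red on 0 of 4 cc125 arrays and in green on 0 of 3 npq4 arrays, so its sign and size are not measured there. For HYDEF probe 1 the signs were opposite on every array of cc125 and 4A+, with a difference of -3.529. With the sign of cc125 turned, none of these sign differences is left, and HYDA1 probe 1 would then be opposite in sign to the other strains on every array. In 27 groups of 4 arrays that were examined for a single array far from the others, 0 had one.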

How the results depend on the processing

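The model values named first moved to the other side of the threshold or turned in sign under an alternative, the counts changed by over 1.5 times, and the cause was not tested. With Benjamini-Hochberg the values stayed and more passed: HYDA2 in cc3491 at 1.24 and cc125 at -1.11, HYDA1 in 4A+ at -1.052 and npq4 at -1.712, and, for cc125 minus cc3491, HYDA1 at -1.719 and HYDEF at -1.31. The number of called probes of 9 was then 3 in cc3491, 4 in cc125, 3 in 4A+, 2 in npq4, 1 for npq4 minus 4A+, 2 for npq4 minus cc3491, 1 for 4A+ minus cc3491 and 4 for cc125 minus cc3491. With the scanner ratio, HYDA2 passed Holm in cc3491 at 1.635, in 4A+ at 1.525 and in cc125 at -1.945, and HYDA1 in npq4 at -2.761, and the called probes were 3 in cc125, 1 in 4A+, 1 in npq4 and 4 for cc125 minus cc3491. With an offset of 0, HYDA2 passed in cc125 at -1.715, and the called probes were 2 in cc125, 1 in 4A+ and 4 for cc125 minus cc3491. For npq4 minus 4A+, HYDA2 probe 2 turned to -0.4151 with that offset and to -0.4473 with the scanner ratio.

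Median centring gave HYDA1 -2.503 in 4A+, past Holm, and -1.098 in cc125, no longer past it, with 1 called probe in 4A+ and 0 in cc125 and in cc125 minus cc3491. It turned HYDEF in cc125 to 0.1297, HYDA1 and HYDA2 for npq4 minus 4A+ to 0.6918 and 0.1572, HYDA1 probes 1 and 2 there to 1.026 and 0.6516, and HYDA2 probe 1 for 4A+ minus cc3491 to -0.5892. It also turned the slopes of HYDA1 to 0.06198, of its probes 1 and 2 to 0.02136 and 0.01752, of HYDEF to 0.007825 and of HYDEF probe 1 to 0.1185. With the sign of cc125 turned, its HYDA1, HYDA2 and HYDEF models were at 2.168, 1.11 and 0.5146, HYDA1 probes 1 and 2 at 3.685 and 2.483, HYDA2 probes 1 and 2 at 2.268 and 0.8892 and HYDEF probe 1 at 1.623. For cc125 minus cc3491 it gave 2.618 for HYDA1, 4.258 and 3.232 for its probes 1 and 2, 0.4107 for HYDA2 probe 1, -0.1299 for HYDA2, no longer past Holm, and -0.2809 for HYDEF, and slopes of 0.02954 for HYDA1 and 0.00861 for its probe 1.

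HYDA1 in cc125 did not pass Holm with normexp on all spots, without a filter or with its own arrays alone, each at -2.168, nor with the median over all probes, at -2.299, which also turned HYDEF in 4A+ to -0.02201. The own arrays alone gave 0 called probes in cc125. For cc125 minus cc3491 the called probes were 2 with normexp on all spots, 0 without a filter and 4 among probes above background in both channels on all arrays, where HYDEF passed at -3.842. In the fit without the cc125 arrays 1 probe was called in cc3491. A further 42 model values moved by over 1.5 times with the same sign and call. Among them, HYDEF was at 2.219 in cc3491 and 1.905 in 4A+ over its probe above background in both channels on all arrays, 0.1362 in cc3491 with the median over probes and 0.1686 in 4A+ with median centring. HYDA1 for 4A+ minus cc3491 was -2.032 with median centring, and HYDEF in cc125 was -0.1936 without its 48 h array.

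Leaving out each array in turn gave HYDA1 in cc125 at -2.502 to -1.839, not past Holm without the 48 h, 72 h or 96 h array of cc125, at -1.839, -2.193 and -2.141. It gave HYDA2 for cc125 minus cc3491 at -2.525 to -2.116, not past Holm without the 24 h array of cc3491, at -2.243, HYDA2 probe 1 there at -4.412 to -3.775, not past Holm in any of the 8 cases, and 0 to 1 called probes, the 1 being HYDEF probe 1 without the 48 h array of cc125. Signs turned for the slopes of HYDA1, at -0.1912 to 0.02353, of HYDEF, at -0.1171 to 0.005015, and of HYDEF probe 1, at -0.1615 to 0.101. They also turned for HYDA2 probe 2 in npq4 minus 4A+, at -0.01119 to 0.5344, and for HYDA2 probe 1 in 4A+ minus cc3491, at -0.2217 to 0.4047.

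With the time point as a replicate block, npq4 minus 4A+ was -0.8638 for HYDEF, -0.7035 for HYDA1 and -0.3299 for HYDA2, and cc125 minus cc3491 was -2.35 for HYDA2. The block changed no Holm call. Array numbers here are time points, so they pair time points and not cultures. Signal over background limits HYDA1 probe 3, HYDA2 probe 3 and, in starved 4A+, HYDEF probes 2 and 3.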
